A study of Mus musculus with 4 samples.

Results

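Fibril-forming collagens are the rope-like proteins that give the dermis its tensile strength. The genes Col1a1, Col1a2, Col3a1, Col5a1, Col5a2, Col5a3, Col11a1 and Col2a1 were taken as listed members, and every probe set that the platform annotation assigns to one of them alone was used. This gave 17 probe sets for 8 genes, of 45101 probe sets and 18194 named genes on the array. No probe set was shared between a member and another gene. The fibril-forming collagen genes Col11a2, Col24a1 and Col27a1 were not listed members, and their values are given further on.

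Fibrillar procollagen chains are hydroxylated and folded into a triple helix in the endoplasmic reticulum, secreted, trimmed of their propeptides and assembled into cross-linked fibrils outside the cell. Types I and III make up the bulk of dermal fibrils, type V starts fibril assembly and limits fibril width, and types II and XI do the corresponding work in cartilage, although type XI chains are also made by other mesenchymal cells. Rbpj encodes RBP-J kappa, or CSL, the DNA-binding partner of the intracellular part of Notch receptors.

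Expression was measured on 4 arrays of mouse dermal fibroblast RNA, 1 array for each of 4 groups, all labelled as C57BL/6. In vitro, fibroblasts given an adenovirus with Cre, in which Rbpj was deleted, were set against fibroblasts given an adenovirus with GFP. In vivo, fibroblasts of mice that carried ColI Cre, as labelled, and loxP-flanked Rbpj on both alleles were set against fibroblasts of mice with the same loxP alleles and no Cre. The labels do not say which collagen promoter fragment drives that Cre, nor the age, the number of mice or whether RNA was pooled. With 1 array per group, a difference inside either pair has no replicates behind it and carries no p-value, and precision is limited by the number of arrays.

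Values below are log2 expression values after quantile normalization of the 4 arrays, and a difference is always the deleted minus the control array on that scale. A gene is represented by its brightest probe set unless another is named. The brightest probe sets of all 8 members, and 16 of the 17 probe sets, had a mean at or above the level cutoff of 5.28, under which signals lie close to background. Probe sets differ in how well they bind, so levels are compared between arrays for one probe set and never between genes.

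Rbpj had 3 probe sets, which differed by 0.10, -1.11 and -1.34 in the in vitro pair. In the in vivo pair they differed by -0.49, -0.10 and -0.83, in the same order. Where these probes lie within Rbpj was not analysed here, and one outside the deleted exons checks nothing. The fibroblast markers Pdgfra, Pdgfrb, Thy1, Vim, Dcn, Lum, Dpt, S100a4 and Fn1 were read beside the label of the cells, and all 9 lay above the cutoff. So did 10916 of all 18194 genes, 7 of 10 keratinocyte markers and 7 of 8 skeletal muscle markers, so passing it does not check the label. The summed signal of the fibroblast markers (log2 of the linear sum) was 15.54 and 15.61 in vitro and 15.16 and 15.05 in vivo, control first. Keratinocyte markers summed to 9.12 in the in vivo control and 12.61 in the in vivo deleted array, with a median difference of 2.88 over all 10, of which 2 lay under the cutoff on all arrays. Skeletal muscle markers summed to 9.51 and 11.72, with a median difference of 2.23 over all 8. Both lists had lower sums in the in vitro deleted array (keratinocyte 10.27 to 9.71, muscle 8.78 to 8.55). The bioB hybridisation controls ranged over their 6 probe sets between 7.91 and 8.73 on the in vitro arrays and between 6.69 and 7.61 on the in vivo arrays. The labels name no batch, and whatever sets these controls apart cannot be told apart from the system. The part of these other cells in any collagen value was not tested, and in bulk RNA fewer cells of a type and less RNA per cell cannot be told apart.

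Of the 8 genes, Col11a1 and Col5a3 were at least 2-fold different, both in vivo and in opposite directions, and no member was at least 2-fold different in vitro. Col11a1 was 4.64-fold lower and Col5a3 3.27-fold higher in the in vivo deleted array. The major dermal chains Col1a1, Col1a2, Col3a1, Col5a1 and Col5a2 differed by -0.16 to 0.15 in vivo on their brightest probe sets. One member in 8 stood past 2-fold in each in vivo direction. Among all 10916 genes analysed, the in vivo share past 2-fold was 2.81% on the higher and 3.81% on the lower side. In vitro these shares were 0.788% and 1.15%.

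The sequences just upstream of the genes that differed are shown because Rbpj encodes a DNA-binding protein. They were taken from RefSeq (GRCm38.p6), whose promoter table matched 5 of the 8 members, and were trimmed to the bases that lie outside the annotated gene. Capitals mark a CCAAT box (CCAAT) or a GC box (GGGCGG) on either strand, and both sequences run 5′ to 3′ on the gene's strand. The Col11a1 window is chr3:114030290-114030478 on the plus strand and the Col5a3 window is chr9:20815118-20815317 on the minus strand.
Col11a1: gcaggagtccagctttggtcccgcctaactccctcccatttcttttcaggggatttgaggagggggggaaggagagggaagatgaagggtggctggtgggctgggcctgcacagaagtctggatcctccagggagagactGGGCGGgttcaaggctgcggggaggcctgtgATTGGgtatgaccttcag
Col5a3: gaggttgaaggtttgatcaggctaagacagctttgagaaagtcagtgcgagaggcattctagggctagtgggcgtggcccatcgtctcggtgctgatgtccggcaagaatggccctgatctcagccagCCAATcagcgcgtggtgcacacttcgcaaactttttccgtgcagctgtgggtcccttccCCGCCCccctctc

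The Col11a1 window of 189 bases held 1 GC box on the gene's strand and 1 CCAAT box on the other strand, with 43 and 13 bases between the match and the end of the window. The Col5a3 window of 200 bases held 1 CCAAT box on the gene's strand and 1 GC box on the other strand, with 67 and 7 bases to its end. Both motifs are common: windows of the same length and position hold CCAAT in 26.5% (189 bases) and 28.4% (200 bases) of the 32851 promoters in the table, and GGGCGG in 22.6% and 24.6%. The core letters bound by CSL, TGGGAA, were not in either window on either strand, and 17.0% and 17.9% of all promoters hold them in windows of these lengths. The TATA box letters TATAAA were in neither, against 8.69% and 9.14%. All these windows begin 250 bases before the start site of the promoter table and stop short of it. The bases next to that start were therefore not searched for any motif. None of the 4 motifs overlapped another in these windows. Both windows thus held both of these common motifs, and any part of the motifs in the in vivo differences was not tested. A match is a description of letters and no evidence of binding.

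**Figure D1:**
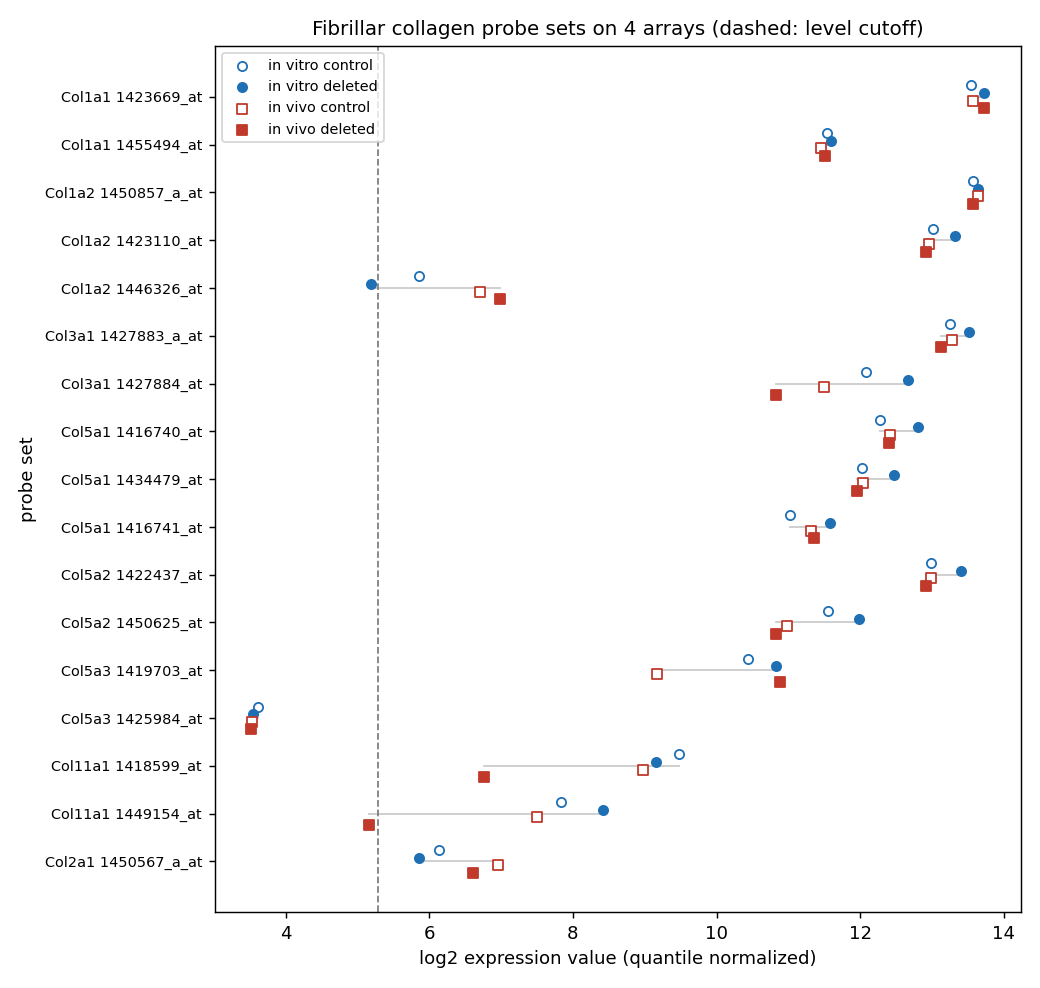
Log2 expression value (x axis, quantile normalized) of each of the 17 probe sets (y axis) on the 4 arrays. Circles are the in vitro and squares the in vivo arrays, open symbols controls and filled symbols deleted, grey lines join the extremes of a probe set, and the dashed line is the level cutoff of 5.28. The in vivo deleted array stands alone at the low end for both Col11a1 probe sets, and the in vivo control stands alone at the low end for Col5a3 1419703_at.

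Col11a1 encodes a chain of type XI collagen, which in cartilage starts thin type II fibrils and which can also assemble with type V chains. Its brighter probe set 1418599_at read 9.48 in the in vitro control, 9.16 in the in vitro deleted array, 8.97 in the in vivo control and 6.76 in the in vivo deleted array. The in vivo deleted array was thus the low one, and the other 3 lay within 0.50 of each other. The in vivo difference was -2.21, the 44th lowest of 10916 genes. The second probe set, 1449154_at, read 7.84, 8.43, 7.497 and 5.16 in the same order, an in vivo difference of -2.34 or 5.05-fold. Its in vivo deleted signal lay under the cutoff, so that size is not exact. Both probe sets placed the same array lowest, with in vivo differences 0.12 apart on the log2 scale. In vitro they had opposite signs, at -0.32 and 0.59, so no direction is given for Col11a1 there.

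Col5a3 encodes the third chain of type V collagen, a minor chain of restricted tissue distribution. Probe set 1419703_at read 10.43 in the in vitro control, 10.83 in the in vitro deleted array, 9.18 in the in vivo control and 10.89 in the in vivo deleted array. Here the in vivo control was the low array, and the in vivo deleted array read close to both in vitro arrays. The in vivo difference was 1.71, the 66th highest of 10916 genes, and the in vitro difference was 0.40. The in vivo control was 1.25 lower than the in vitro control, a difference that shares its control array with the in vivo comparison. The other probe set, 1425984_at, read 3.52 to 3.61 on all 4 arrays, below the cutoff, and its in vivo difference was -0.0064. The excess of Col5a3 therefore rests on 1 probe set on 1 pair of arrays.

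**Figure D2:**
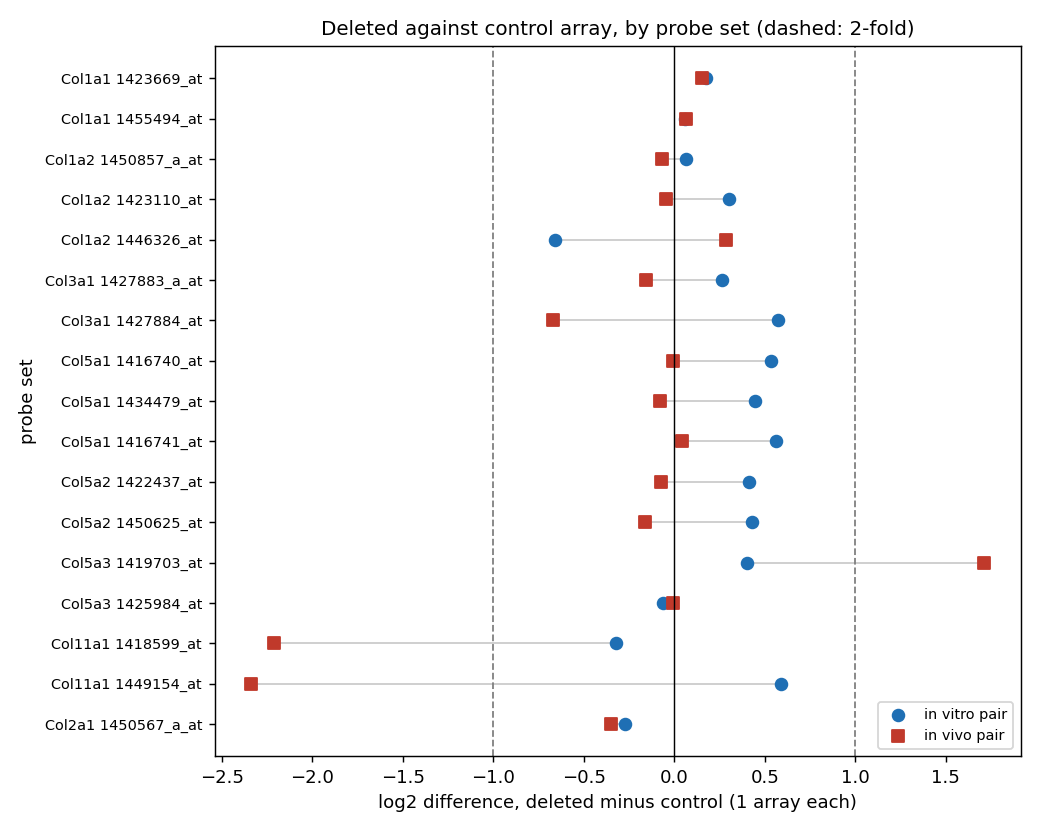
Deleted minus control log2 value (x axis) for each probe set (y axis), with circles for the in vitro and squares for the in vivo pair and dashed lines at 2-fold. Both Col11a1 probe sets lie beyond 2-fold on the low side in vivo and Col5a3 1419703_at on the high side, while the in vitro circles of Col5a1 and Col5a2 lie between 0.42 and 0.56.

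Col5a1 and Col5a2 encode the main chains of type V collagen, which sits inside type I fibrils of skin. Col5a1 had 3 probe sets with close values. Probe set 1416740_at read 12.27, 12.80, 12.41 and 12.40 in the in vitro control, in vitro deleted, in vivo control and in vivo deleted arrays. The in vitro deleted array was the high one, and the in vivo arrays differed by -0.0074. Probe sets 1434479_at and 1416741_at differed by 0.44 and 0.56 in vitro and by -0.08 and 0.04 in vivo. Col5a2 probe set 1422437_at read 12.98, 13.40, 12.98 and 12.91, and 1450625_at read 11.55, 11.98, 10.99 and 10.82. Their in vitro differences were 0.42 and 0.43 and their in vivo differences -0.07 and -0.16. All 5 probe sets of these type V chains were thus higher in the in vitro deleted culture by 1.33-fold to 1.48-fold, below the 2-fold threshold.

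The type V chains thus had unlike differences in vivo. Col5a3 was 1.71 higher, while the brightest probe sets of Col5a1 and Col5a2 differed by -0.0074 and -0.07. In vitro the same chains lay close together, at 0.53, 0.42 and 0.40.

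Col3a1 encodes the chain of type III collagen, a homotrimer abundant in young and healing dermis. Probe set 1427883_a_at read 13.25 in the in vitro control, 13.52 in the in vitro deleted array, 13.28 in the in vivo control and 13.12 in the in vivo deleted array. The dimmer probe set 1427884_at read 12.08, 12.66, 11.50 and 10.83. Both probe sets were highest in the in vitro deleted array and lowest in the in vivo deleted array. The in vitro differences were 0.27 and 0.58, and the in vivo differences -0.16 and -0.67. The dimmer probe set gave the larger difference in each pair, and was 1.59-fold lower in vivo, the largest in vivo difference among the probe sets of types I and III and of Col5a1 and Col5a2.

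Col1a1 and Col1a2 encode the chains of type I collagen, the main protein of dermal fibrils. Col1a1 probe set 1423669_at read 13.55, 13.72, 13.57 and 13.72 in the in vitro control, in vitro deleted, in vivo control and in vivo deleted arrays. Its differences were 0.18 in vitro and 0.15 in vivo. The dimmer Col1a1 probe set 1455494_at read 11.54, 11.59, 11.45 and 11.52, with differences of 0.06 in both pairs. No Col1a1 array therefore differed from another by more than 0.18. Col1a2 probe set 1450857_a_at read 13.57, 13.63, 13.63 and 13.57, and 1423110_at read 13.01, 13.32, 12.96 and 12.92. Their differences were 0.07 and 0.30 in vitro and -0.07 and -0.05 in vivo. A further Col1a2 probe set, 1446326_at, read 5.85, 5.19, 6.70 and 6.99, with differences of -0.66 in vitro and 0.29 in vivo, opposite in sign to the other probe sets of the gene in each pair. Its in vitro deleted signal lay under the cutoff, so the in vitro size is not exact.

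The brightest type I probe sets lie at the very top of the array's signal scale. Col1a1 1423669_at ranked 4th, 1st, 3rd and 1st of 45101 probe sets in the same order of arrays, and Col1a2 1450857_a_at ranked 3rd, 2nd, 2nd and 3rd. Quantile normalization gives each rank 1 value on all arrays, so it sets the highest signal of every array to 13.72 and leaves such probe sets with differences of rank alone. As deposited, Col1a1 1423669_at read 13.53, 13.79, 13.59 and 13.62, with differences of 0.26 in vitro and 0.03 in vivo. As deposited, Col1a2 1450857_a_at differed by 0.17 and -0.05. In both versions these type I differences stayed well below 2-fold. Whether these signals were near the top of the scanner's range was not tested.

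Col2a1 encodes the chain of type II collagen, the main fibril of cartilage, and its single probe set 1450567_a_at read 6.14, 5.86, 6.96 and 6.61. The in vivo arrays were higher than the in vitro arrays for this probe set, and within each pair the deleted array was lower, by 0.27 in vitro and 0.35 in vivo. Of 10 chondrocyte markers, 5 lay under the cutoff on all 4 arrays, among them Matn1, a cartilage matrix protein, at 3.20 to 3.396. Acan, the cartilage proteoglycan aggrecan, read 5.02 to 5.42, and Sox9, the transcription factor that drives Col2a1 and Col11a1 in chondrocytes, was 1.06 lower in the in vivo deleted array (range over its probe sets -1.06 to -0.48). Sox9 read 8.16 in the in vivo control and 7.11 in the in vivo deleted array, and 6.07 and 6.14 in vitro. Of the other chondrocyte markers above the cutoff, the transcription factor gene Sox5 differed by 0.37 in vitro and 0.53 in vivo, and Col9a1, a collagen on the surface of cartilage fibrils, by 0.06 and -0.06.

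**Figure D3:**
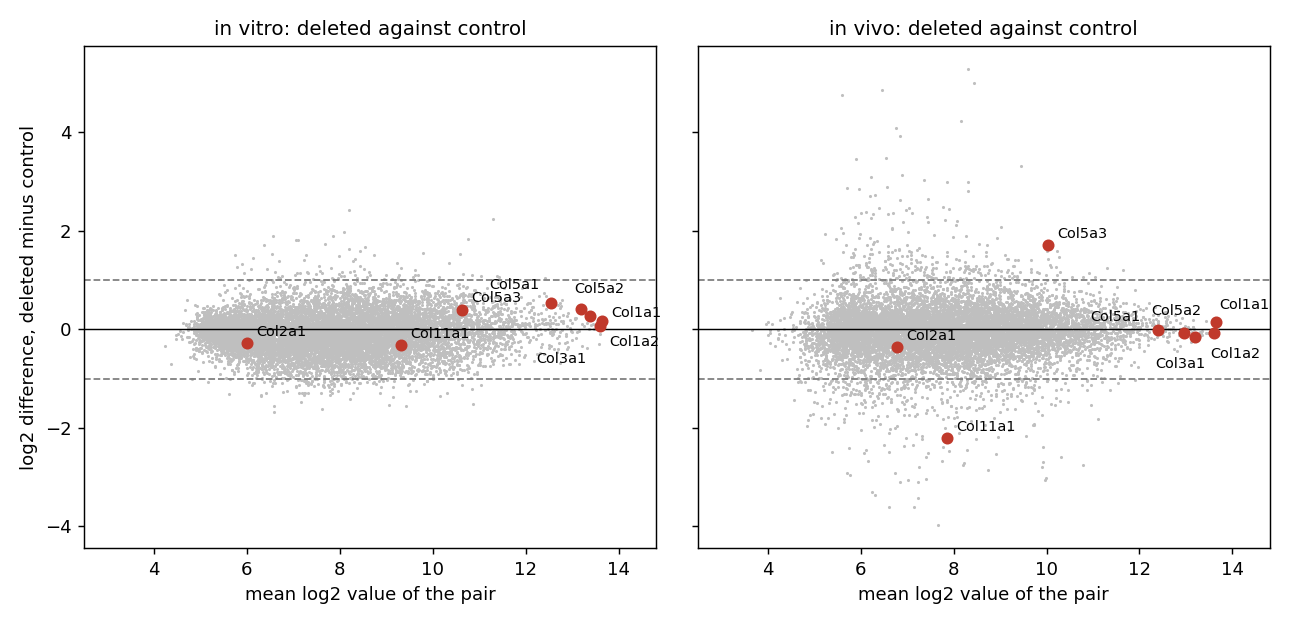
Deleted minus control log2 value (y axis) against the mean log2 value of the pair (x axis), in vitro on the left and in vivo on the right. Grey points are the 10916 genes analysed, red points the 8 fibrillar collagen genes, and dashed lines mark 2-fold. Col5a3 and Col11a1 stand outside the lines in vivo, and 5 members lie at the bright end. For genes with a mean of at least 12, the 5th to 95th percentile of differences was -0.40 to 0.54 in vitro and -0.25 to 0.35 in vivo.

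As a family, the 8 genes had a median difference of 0.22 in vitro, against -0.06 over all genes analysed, and 6 of the 8 were higher, against 42.5% of all genes. In vivo the median was -0.07, against -0.03 over all genes, and 6 of the 8 were lower, against 53.6% of all genes. Col1a1, Col1a2, Col3a1, Col5a1 and Col5a2 were also bright in both pairs. Among the 141 genes with a mean of at least 12 in vitro, the median difference was 0.11 (5th to 95th percentile -0.40 to 0.54) and 63.8% were higher. All 5 bright members were higher there, with a median of 0.27. Among the 124 such genes in vivo the median was 0.01 (5th to 95th percentile -0.25 to 0.35), and 1 of the 5 members was higher.

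The in vitro arrays, between which most collagens differed upwards, also differed in RNA integrity controls. The signal of the 3′ probe set exceeded that of the 5′ probe set by 1.003 for Gapdh in the in vitro control and by 0.02 in the deleted culture. For Actb the excess was 1.11 and 0.40, for pyruvate carboxylase 3.16 and 2.01, and for the transferrin receptor 0.96 and 1.45. In vivo, control first, it was 0.14 and 0.13 for Gapdh and 0.41 and 0.15 for Actb. For pyruvate carboxylase it was 1.10 and 0.83 in vivo, and for the transferrin receptor 1.25 and 1.54. An alternative added after seeing the data removed the trend of the difference on gene span. The in vitro median of the 8 members was then 0.19. Gene span is the length of a gene on the chromosome and not that of its RNA, so this median is no measure of RNA integrity. The part of RNA quality in the in vitro collagen values was not tested.

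The test made was of a deletion effect common to both systems, fitted with limma over all 10916 genes with system as a covariate. It rests on 1 residual degree of freedom before moderation. No member passed an adjusted p of 0.05, and neither did any gene (0%), while 759 of all genes and 2 members, Col5a3 and Col11a1, had an unadjusted p under 0.05. The mean of both differences was 1.06 ± 0.36 (SE) for Col5a3, higher in both pairs, and -1.27 ± 0.48 (SE) for Col11a1, lower in both pairs by its brightest probe set. Both had an adjusted p of 0.679 by limma with the Benjamini-Hochberg method. Col2a1 was lower in both pairs at -0.31 ± 0.20 (SE), and Col1a1 was higher in both at 0.16 ± 0.20 (SE). Col1a2, Col3a1, Col5a1 and Col5a2 had opposite signs in the systems. At this number of arrays, no deletion effect shared by the systems was detectable for any fibrillar collagen.

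Between the in vitro and in vivo control arrays the members differed by -1.25 (Col5a3) to 0.82 (Col2a1), with a median of 0.02 over the 8 genes. Col11a1 was 0.50 lower in the in vivo control, and the 5 bright members differed by 0.00 to 0.14. The dimmer probe sets of these 5 genes did not all read like the brighter ones, nor share a direction. Col3a1 1427884_at was 0.58 lower and Col5a2 1450625_at 0.57 lower in the in vivo control, while the brighter probe sets of those genes differed by 0.03 and 0.00. Col1a1 1455494_at, Col1a2 1423110_at and Col5a1 1434479_at differed by -0.08, -0.05 and 0.02. Col5a1 1416741_at was 0.30 higher and Col1a2 1446326_at 0.85 higher in the in vivo control. These values share their control arrays with both deletion comparisons, and whatever sets the bioB controls of the systems apart cannot be told apart from them.

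Genes whose pattern over the 4 arrays was closest to that of Col11a1 were found by Euclidean distance, after subtracting each gene's mean. Osr2, a zinc-finger transcription factor, was nearest at a distance of 0.18, with an in vivo difference of -2.01. Ppp1r3c, a subunit that directs a phosphatase to glycogen, followed at 0.27 (-2.49 in vivo). The next were Islr at 0.34, the non-coding RNA gene Dleu2 at 0.35 and Ypel2 at 0.37, with in vivo differences of -1.79, -1.89 and -1.85. The in vivo deleted signals of Ppp1r3c (4.13) and Dleu2 (4.71) lay under the cutoff, so the sizes of their differences are not exact.

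For Col5a3 the nearest gene was Npnt, which encodes the matrix protein nephronectin, at a distance of 0.29. It read 6.22, 6.68, 4.65 and 6.60 in the order given above, with the in vivo control under the cutoff. The growth factor gene Tgfb2 followed at 0.32, with an in vivo difference of 1.26, but its probe sets above the cutoff ranged from 0.12 to 1.26. Msl2 (0.35), the laminin receptor gene Itga6 (0.38) and Noct (0.40) came next, with in vivo differences of 1.24, 1.62 and 1.26.

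Of the fibril-forming collagens outside the member list, Col27a1 lay above the cutoff and Col11a2 and Col24a1 had means under it. Col27a1 read 6.91, 6.80, 8.03 and 7.98, with differences of -0.11 in vitro and -0.05 in vivo. Col11a2, which encodes a partner chain of Col11a1 in type XI collagen, read 4.18, 4.53, 5.48 and 5.29. Col24a1 read 3.29 to 3.99.

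**Figure D4:**
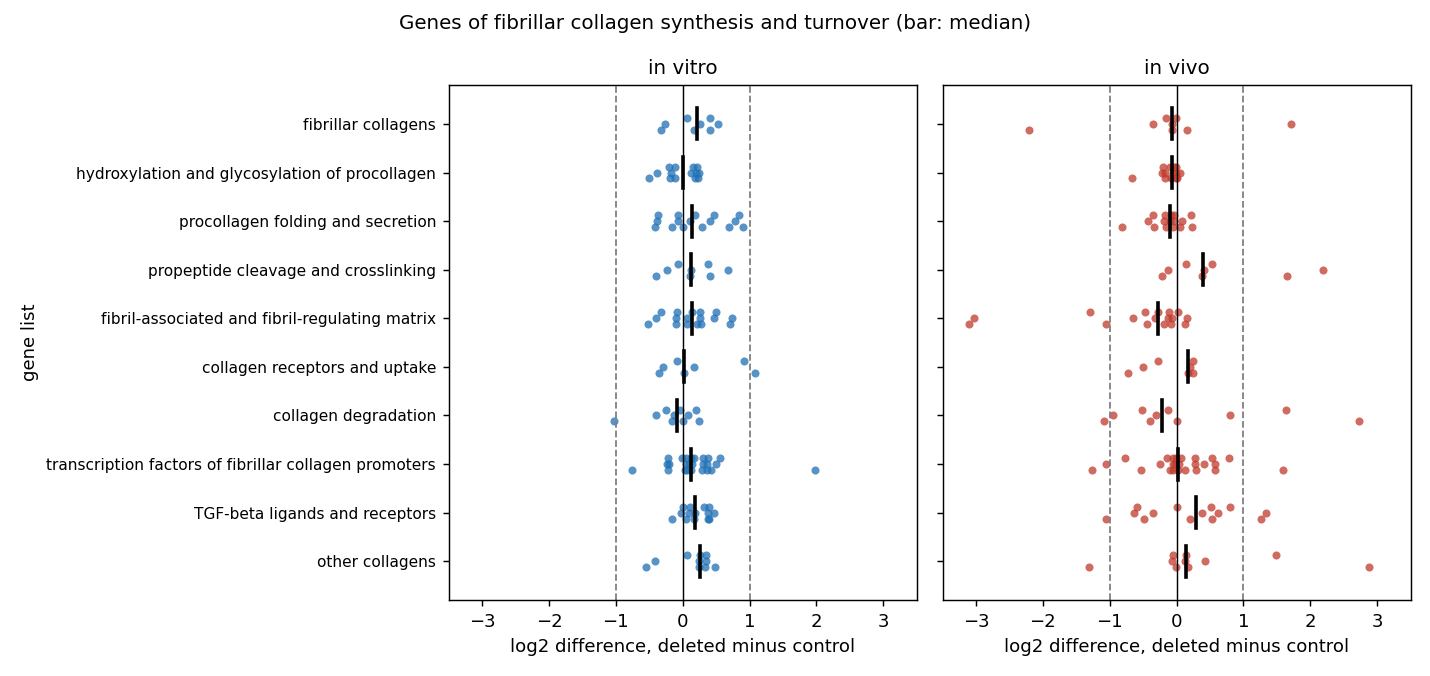
Deleted minus control log2 value (x axis) for the genes above the level cutoff in each list (y axis), in vitro on the left and in vivo on the right; points are genes, black bars list medians and dashed lines 2-fold. By brightest probe set, the lists of procollagen modification and folding lie within 2-fold in both pairs, and the fibril-associated list extends to -3.10 in vivo.

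The machinery that modifies and folds procollagen was within 2-fold in both pairs by brightest probe set. Of 14 hydroxylation and glycosylation genes above the cutoff, none was 2-fold different on that probe set. Few of all genes were, at 2.81% higher and 3.81% lower in vivo and 0.788% and 1.15% in vitro, so a count of 0 in a short list says little. The medians were 0.01 in vitro and -0.07 in vivo, with 12 of 14 lower in vivo, beside the 53.6% of all genes. P4hb, the shared subunit of prolyl hydroxylase, differed by 0.13 and 0.01, and P3h2, a prolyl 3-hydroxylase, by -0.12 and -0.67. P3h3, Crtap and P3h4, of the prolyl 3-hydroxylase family or its partners, differed by -0.22, -0.20 and -0.18 in vivo. P4ha2, a catalytic subunit of prolyl hydroxylase, was 0.50 lower in the in vitro deleted culture. P4ha1, another catalytic subunit, differed by -0.19 in vitro on its brightest probe set, but its probe sets above the cutoff ranged from -0.19 to 2.09.

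Of 16 folding and secretion genes, none was 2-fold different by brightest probe set, beside the same small shares of all genes (2.81% and 3.81% in vivo). The medians were 0.15 in vitro and -0.09 in vivo. Serpinh1, the collagen chaperone HSP47, differed by 0.11 in vitro and -0.10 in vivo. Fkbp14, a prolyl isomerase of the endoplasmic reticulum, had the largest in vivo difference at -0.82, followed by Mia3, the collagen export receptor, at -0.42, Trappc2 at -0.34 and Sec23a at -0.34. In vitro the COPII coat gene Sec24d (0.90) and Pdia3 (0.84, range over probe sets 0.26 to 0.84) had the largest values. Other probe sets went past 2-fold in vitro for Mia3 (range -1.28 to 0.29) and for the chaperone gene Canx (range 0.30 to 1.81).

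Enzymes that act on secreted collagen varied more in vivo. Of 8 propeptide and cross-linking genes above the cutoff, 2 were at least 2-fold higher, beside 2.81% of all genes, with no test. Pcolce2, an enhancer of C-propeptide removal, was 2.19 higher, and Tgm2, a transglutaminase, 1.65 higher (range 0.94 to 1.77). Loxl3 and Bmp1, the procollagen C-proteinase, were 0.53 and 0.41 higher. Lox, which starts collagen cross-linking, differed by -0.13 in vivo and by 0.68 in vitro (range 0.68 to 2.25), and Loxl4 by 0.41 in vitro (range 0.41 to 1.44). The list had a median of 0.39 in vivo and 0.12 in vitro.

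Of 17 genes for proteins that coat or regulate fibrils above the cutoff, 14 had lower values in vivo, beside the 53.6% of all genes. Of them, 4 were at least 2-fold lower and none 2-fold higher, and the list's median was -0.28, with no test. The shares over all genes were 3.81% on the lower and 2.81% on the higher side, as given above. Ogn, a small leucine-rich proteoglycan, was at -3.10 and Col14a1, a collagen that binds fibril surfaces, at -3.03 (range -3.03 to -1.81). Dpt (-1.30) and the fibril-binding proteoglycan Lum (-1.06) were also lower, and both also count among the fibroblast markers. Their in vitro differences were 0.71, 0.07, -0.10 and 0.50, and Col12a1 was 0.74 higher in vitro (range 0.74 to 1.59). The list's in vitro median was 0.14.

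Among collagen receptors and uptake genes, 7 lay above the cutoff and none was 2-fold different in vivo, beside 2.81% of all genes higher and 3.81% lower. The list's medians were 0.01 in vitro and 0.17 in vivo. In vivo 4 of the 7 were higher, beside 46.4% of all genes, and 3 were lower. Itga1 was at -0.73, Mrc2, an endocytic collagen receptor, at -0.50 and Ddr2, a receptor kinase for fibrillar collagen, at -0.27. Itgb1, the shared beta chain of collagen-binding integrins, was 1.09 higher in vitro (range 0.53 to 1.31) and 0.25 higher in vivo. Cd36 was 0.92 higher in vitro (range 0.33 to 0.92).

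Of 10 degradation genes above the cutoff, Mmp3 (2.73, in vivo control under the cutoff) and Mmp9 (1.64, range 1.64 to 2.48) were at least 2-fold higher in vivo. The share over all genes was 2.81%. On the lower side, where that share was 3.81%, the inhibitor gene Timp2 was at -1.08 (range -1.08 to -0.59). Over the list, 4 genes were higher and 6 lower in vivo, with no test. Timp3, an inhibitor held in the matrix, was at -0.95. A further inhibitor gene, Timp1, went the other way, at 0.80 in vivo and -0.26 in vitro. In vitro Mmp3 was 1.02 lower. Mmp9 was at -0.41 there, with a range over probe sets of -0.41 to 0.09 and a deleted signal of 5.24, under the cutoff. Timp2 and Timp3 were at -0.16 and 0.24 in vitro by brightest probe set, with other probe sets up to 2.35 higher for each. The list's medians were -0.09 in vitro and -0.22 in vivo.

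Transcription factors known to act on fibrillar collagen promoters had medians of 0.13 in vitro and 0.02 in vivo over 25 genes. In vivo Fosl1, an AP-1 subunit, was 1.60 higher, Klf4 1.26 lower, Sox9 1.06 lower and Jun 0.79 higher (range 0.54 to 0.79). In vitro Sp3, which binds GC boxes, was 1.98 higher on its 1 probe set, and Nfyb, a subunit of the factor that binds CCAAT boxes, was at -0.75, with probe sets from -0.75 to 0.26.

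TGF-beta is a main inducer of collagen synthesis in fibroblasts. The 14 genes of its ligands, receptors, latency proteins and feedback had medians of 0.18 in vitro and 0.29 in vivo. In vivo Smad7, an inhibitor induced by the pathway, was 1.34 higher, Tgfb2 1.26 higher with the probe set range given above, and Tgfb1 0.80 higher, while the receptor gene Tgfbr2 was at -1.06 (range -1.06 to -0.29). In vitro Tgfbr2 was at 0.39, with probe sets from 0.39 to 3.34. Ltbp4 was 0.47 higher in vitro. No gene of any of these lists had an adjusted p under 0.05 in the limma fit.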

How the data were processed

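The authors deposited log2 expression values (2.87 to 13.79, 45101 probe sets, 4 arrays, 0 missing values). That these are log2 values was judged from their range. The software, background correction and normalization behind them are not given in the sources used here. Per the labels' protocols, biotin-labelled cRNA was made from poly(A) RNA with an oligo(dT) primer.

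The arrays were quantile normalized with limma 3.58.1 (R 4.3.3). The platform annotation gave gene names, and symbols were updated through RefSeq GRCm38.p6 (34754 of 34958 single-gene probe sets matched). Each gene took its brightest probe set, and 10916 of 18194 genes passed a level cutoff at the 40th percentile of gene means (5.28). limma (lmFit, eBayes) was fitted over all genes with system as a covariate. Adjustment over all genes was by the Benjamini-Hochberg method. Procedures were tested on simulated data.

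Members, gene lists and tests were chosen with earlier results of these data known. Named genes were all members, Rbpj, the 4 genes of each list with the largest in vivo and the 2 with the largest in vitro difference, and the 5 nearest genes of the 2 members with the largest range. P4hb, P4ha1, Serpinh1, Canx, Timp1, Acan, Matn1, Col4a1, Col4a2, Col6a1, Col6a2 and Col6a3 were named in addition, after their values were seen. Marker lists are given mostly by their sums or medians, and not every marker gene the rule picks is printed. Marker lists for osteoblasts, macrophages, endothelium, adipocytes and smooth muscle were also read, as given at the end. Alternatives were the deposited values, loess within pairs, centring, an added constant before log2, other level filters, other ways of choosing probe sets, other thresholds, the mean, a variance trend and no system term.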

Additional observations from a re-analysis of the deposited data

Results flagged for a closer look

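Of the 16 collagen probe sets above the level cutoff, 10 had differences of opposite sign in the in vitro and in vivo pairs, or 62.5%, against 44.0% of the 18136 single-gene probe sets above the cutoff. Several of these probe sets belong to the same gene, so they are not separate members. By brightest probe set, Col1a2, Col3a1, Col5a1 and Col5a2 of the 8 genes had opposite signs, against 44.7% of all genes analysed. The probe sets with opposite signs at least 1 apart on the log2 scale are listed here. For Col11a1 1449154_at the in vivo difference (-2.34) was lower than the in vitro difference (0.59), an in vivo minus in vitro value of -2.92. For Col3a1 1427884_at the in vivo difference (-0.67) was lower than the in vitro difference (0.58), with an in vivo minus in vitro value of -1.25. With 1 array per group, neither difference between systems was tested. The brighter probe set of Col11a1 was lower in both pairs, and that of Col3a1 had opposite signs with a smaller gap.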

How the results depend on the processing

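Of 70 recomputed summary values (counts of members past 2-fold, family medians and limma calls), 68 stayed within 1.5 times the count or within the pooled SD over probe sets of a gene (0.35 in vitro, 0.17 in vivo). The 2 exceptions were the in vivo count of 2-fold members, which fell to 1 when all probe sets of a gene were summarised by their median and to 1 with the second brightest probe set of each gene (added after seeing the data). Col5a3 was at 0.85 in the former and under the level filter in the latter. In vitro the lowest family median was 0.19 and the highest 0.43; in vivo these were -0.16 and -0.03. The mean in place of the median was 0.16 and -0.13. Both SDs are larger than the size of the family medians judged by them (0.22 in vitro, -0.07 in vivo). A median could thus change sign and still stay within its SD, so the count of 68 does not measure how stable the medians are. The limma counts were 0 in every alternative, and dropping the level filter left both medians unchanged. The smallest adjusted p of a member ranged from 0.623 to 0.9998 over the limma alternatives. Of 126 recomputed gene values, 5 moved further than that SD. These were Col3a1 in vivo (-0.41 and -0.67), Col5a3 in vivo (0.85) and Col11a1 in vitro (0.13 and 0.59), all from the choice of probe set. The limma fit pairs each deleted array with the control of its own system, and without that system term the smallest adjusted p of a member was 0.9998. Signals under the cutoff limit Col5a3 1425984_at on all arrays, Col1a2 1446326_at in the in vitro deleted and Col11a1 1449154_at in the in vivo deleted array, and the number of arrays limits every value.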

Other observations

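Among collagens that do not form fibrils, Col17a1, the hemidesmosome collagen of basal keratinocytes, was 2.88 higher in the deleted array, with the in vivo control under the cutoff at 4.26, and Col7a1, which anchors the epidermis to the dermis, was 1.49 higher. Col8a1 was at -1.31 (range -1.31 to -0.89), and Col18a1 was 0.43 higher. The type VI genes Col6a1, Col6a2 and Col6a3 differed by -0.01, -0.05 and 0.17 in vivo and by 0.34, 0.24 and 0.26 in vitro, where Col4a1 and Col4a2 were both 0.34 higher.

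Other cell type markers gave few measured genes. Macrophage markers had a median in vivo difference of -0.01 over 4 genes, with Lyz2 at -1.06. The osteoblast enzyme gene Alpl was 1.24 higher in the in vivo deleted array, 1 of 2 osteoblast markers above the cutoff, but its in vivo control lay under it at 5.14, so the size is not exact. Medians were -0.24 for endothelium (2 genes), 0.47 for adipocytes (2 genes) and 0.29 for smooth muscle and pericytes (4 genes). Adipocyte markers summed to 12.51 and 12.42 in vitro and to 10.43 and 10.81 in vivo, control first. Smooth muscle and pericyte markers summed to 12.73 and 13.01 in vitro and to 13.14 and 13.35 in vivo. Their part in the collagen values was not tested.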
